A study of Mus musculus with 24 samples.

Results

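The transforming growth factor beta (TGF-beta) axis was followed through 9 genes: the ligands Tgfb1, Tgfb2 and Tgfb3, the activin subunit gene Inhba, the latency gene Ltbp1, the receptor genes Tgfbr1, Tgfbr2 and Tgfbr3, and the induced matrix gene Tgfbi. A probe set was taken when the platform's annotation gave it a symbol of this group, which gave 9 of the 8251 named genes on the array and 11 of its 12422 probe sets, with 2 each for Tgfb3 and Tgfbi and 1 each for the other genes. The rule itself uses no measured value, but the group was chosen with earlier results of these data known. The study profiled RNA from 11 lung tumour cell lines and from normal lung cells on Affymetrix arrays that hold many short probes for each transcript. The lines (A2B1, A2C12, B3, betaD5, betaD10, cRAF_cMYC, gammaA3, gammaA7, gammaB8, gammaD1 and gammaD12) came out of lung tumours of 8-month-old mice that carried both the c-Myc and the c-Raf transgene. They were grown for up to 50 weekly passages in medium with 10% fetal calf serum. The control was alveolar epithelial type II cells of healthy, non-transgenic mice, obtained from the lung by trypsin digestion and a Percoll density gradient. No agent was applied to either group. The sources used here do not give the promoter that drives the transgenes, the age of the control mice, or whether the 2 control arrays came from separate animals. All differences between lines and control therefore cover the transgenes, transformation, serum and culture at once, and these cannot be told apart.

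The TGF-beta ligands are secreted in a latent form, wrapped in their own propeptide and tied to the matrix by latent TGF-beta binding proteins such as Ltbp1. Released ligand brings the type II receptor (Tgfbr2) and the type I receptor (Tgfbr1) together, and the type I kinase then phosphorylates Smad2 and Smad3, which enter the nucleus with Smad4. Activin A, a dimer of the subunit encoded by Inhba, uses other receptors but the same Smads. In the lung epithelium the pathway is known for holding back growth and for promoting a mesenchymal state and matrix production.

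The promoters below are the 250 bases upstream of the listed start, credited to RefSeq on mouse build GRCm38.p6, in the direction of transcription. They are shown for the 4 genes whose RNA differed from control and for Tgfb2, whose window holds the E-box that Myc binds with its partner Max. Capitals mark matches on either strand to 7 motifs: the E-box CACGTG, the AP-1 site TGANTCA, the cyclic AMP response element TGACGTCA, the Smad palindrome GTCTAGAC, the CAGA box CAGACA, the TATA box TATAAA and the GC box GGGCGG. The CAGA box and the Smad palindrome share the letters AGAC.
Inhba, chr13:16011601-16011850, plus strand: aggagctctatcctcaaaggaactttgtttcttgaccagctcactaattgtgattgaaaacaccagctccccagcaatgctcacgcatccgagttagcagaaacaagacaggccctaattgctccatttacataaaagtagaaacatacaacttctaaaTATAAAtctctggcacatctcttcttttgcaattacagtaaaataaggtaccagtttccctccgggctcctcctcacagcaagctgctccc
Ltbp1, chr17:75005279-75005528, plus strand, the first of 2 listed starts: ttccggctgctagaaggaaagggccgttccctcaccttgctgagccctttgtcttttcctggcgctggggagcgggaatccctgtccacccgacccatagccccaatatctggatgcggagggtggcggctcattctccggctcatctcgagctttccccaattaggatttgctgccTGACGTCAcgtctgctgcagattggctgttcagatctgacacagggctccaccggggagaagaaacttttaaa
Tgfb1, chr7:25686752-25687001, plus strand: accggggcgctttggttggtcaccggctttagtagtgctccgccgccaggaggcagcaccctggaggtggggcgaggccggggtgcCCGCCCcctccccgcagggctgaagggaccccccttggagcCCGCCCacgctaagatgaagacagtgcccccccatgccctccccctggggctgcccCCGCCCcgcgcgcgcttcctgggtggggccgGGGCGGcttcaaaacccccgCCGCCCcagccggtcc
Tgfbi, chr13:56609336-56609585, plus strand: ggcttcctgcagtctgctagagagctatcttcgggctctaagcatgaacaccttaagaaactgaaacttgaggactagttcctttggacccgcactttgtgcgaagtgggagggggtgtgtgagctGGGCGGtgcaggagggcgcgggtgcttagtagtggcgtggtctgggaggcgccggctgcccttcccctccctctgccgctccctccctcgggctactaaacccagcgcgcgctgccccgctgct
Tgfb2, chr1:186705990-186706239, minus strand: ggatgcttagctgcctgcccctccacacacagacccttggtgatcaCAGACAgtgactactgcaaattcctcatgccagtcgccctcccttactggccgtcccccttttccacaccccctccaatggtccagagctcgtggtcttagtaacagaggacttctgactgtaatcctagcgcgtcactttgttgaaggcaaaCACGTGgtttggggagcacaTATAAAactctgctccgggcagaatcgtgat

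The Tgfb1 window was 75.2% G or C, against a median of 52.4% over 32851 windows of the same length, and held 5 GC boxes, a motif present in 32.7% of all windows. The Tgfbi window, at 62.4% G or C, held 1 GC box. The Inhba window was 43.2% G or C and held a TATA box 91 bases before the start. TATA letters occur in 12.4% of all windows. The Ltbp1 window held a cyclic AMP response element 73 bases before the start, which 1.55% of windows do. The Tgfb2 window held the Myc and Max E-box 51 bases before the start (6.02% of windows), a TATA box 31 bases before it and a CAGA box, the letters that Smad3 and Smad4 bind, 204 bases before it (17.1% of windows). CAGA letters also lay in windows not printed, 149 and 98 bases before the second Ltbp1 start and 203 bases before the second Tgfbr1 start. AP-1 letters (6.75% of windows) and the Smad palindrome (0.167%) were in none of the windows of the 7 genes that the table held. A match is a description of letters and not evidence of binding. Windows for Tgfb3 and Tgfbr3 were not used here.

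Of the 11 lines, 5 have 3 arrays, A2B1 has 2 and 5 have 1. In lines with several arrays the labels number 1 or 2 arrays ("replicate 1", "replicate 2") and leave 1 without a number. The lines with 1 array have an array without a number. Arrays did not always sit with their own line. After centring each probe set, cRAF_cMYC replicate 2 correlated with gammaA7 replicate 2 at 0.83 and cRAF_cMYC replicate 1 with gammaA7 replicate 1 at 0.73, while replicates 1 and 2 correlated at -0.03 within cRAF_cMYC and at -0.01 within gammaA7. The arrays without a number in B3 and gammaB8 also sat apart from the numbered arrays of their line. They correlated with replicates 1 and 2 at 0.03 and 0.11 in B3 and at -0.125 and -0.191 in gammaB8. Of the 17 arrays of lines with several arrays, only 9 were closest to an array of their own line. These values are across genes, which are not independent. The 2 arrays of A2B1 were at least 2-fold apart for 983 of the 7670 tested probe sets, and the 2 control arrays for 952. Type II cell markers were unevenly held by the controls, with surfactant protein C (Sftpc) at 787 and 11200 on control arrays 1 and 2. In the lines, the summed signal of the 9 type II markers on the array ran from 137 to 287, against 2312 and 33900 on the control arrays. The median over all probe sets lay at 53.2 to 75.5 for tumour arrays, below the 93.8 and 108 of the controls.

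The lines were first set against control to ask how each gene of the axis differs in the tumour lines. A line's signal is the back-transformed mean of its arrays on the log2(signal + 32) scale, and log2 differences are on that scale, which understates changes of dim probe sets. A probe set was called at a limma adjusted p under 0.05 and at least 2-fold. Of the 9 genes, 8 had a probe set bright enough to test. Inhba and Ltbp1 were higher in the lines, Tgfb1 and Tgfbi were lower, and Tgfb2, Tgfb3, Tgfbr1 and Tgfbr3 were not called. The 8 passed a filter that keeps probe sets above their array's median on at least 2 arrays, so this count describes the genes that could be read. Ltbp1, Tgfb2 and Tgfbr1 passed it only through tumour arrays and could hardly be called lower. Over all tested probe sets 16.5% were called higher and 21.4% lower, and the share of the 8 genes called, 2 in each direction, is close to these. The typical tested probe set shifted with the scaling, from a median log2 difference of -0.05 with the deposited signals to 0.18 with quantile normalization and 0.49 with arrays centred on their medians. With centring 31.6% were called higher and 12% lower.

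**Figure D1:**
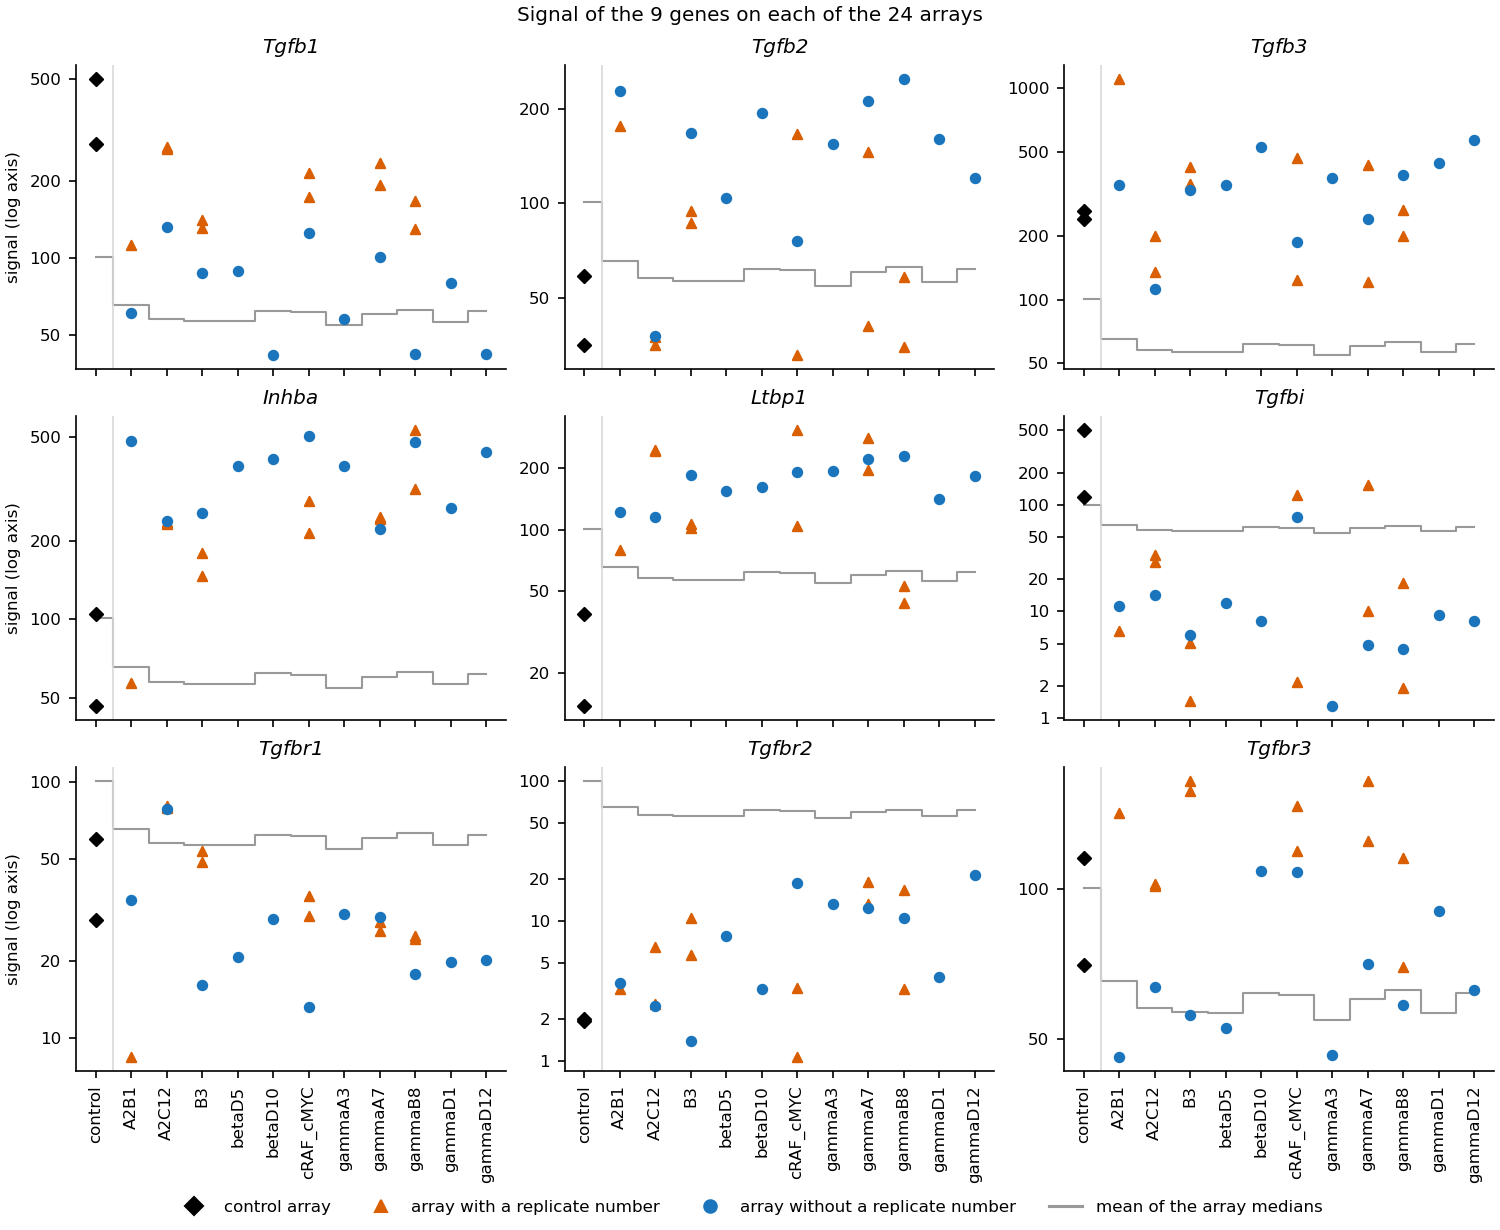
Signal on a log axis of each of the 9 genes on the 24 arrays, 1 panel a gene, by line and control. Each point is an array, the grey line is the mean of the array medians, and a reader should see Tgfb1 highest and Ltbp1 lowest on the control arrays, Inhba lower there than on 21 of 22 tumour arrays, Tgfbi high on the control arrays and on 2 tumour arrays, and Tgfbr2 under the median on every array.

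**Figure D2:**
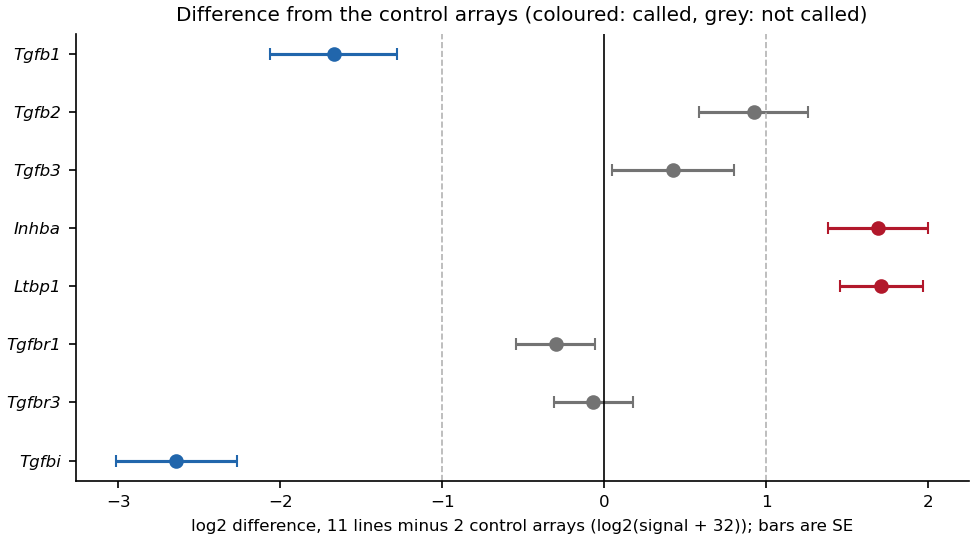
Log2 difference between the 11 line means and the 2 control arrays for the 8 tested genes, with SE as bars and dashed lines at 2-fold. Ltbp1 at 1.71 and Inhba at 1.69 lie to the right, Tgfb1 at -1.67 and Tgfbi at -2.64 to the left.

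Tgfb1, the most widely expressed of the ligands in adult tissue, gave signals of 501 and 279 on control arrays 1 and 2. Among the lines it ran from 41.7 in betaD10 through a median of 88.5 to 214 in A2C12, with a mean of 106 ± 56.2 (SD, n = 11 lines). All 11 lines lay below both control arrays, a pattern shown by 29.7% of tested probe sets, although the brightest tumour array, A2C12 replicate 2 at 272, nearly reached control 2. The log2 difference was -1.67 (SE 0.39, limma adjusted p = 0.00153), or 3.18-fold lower. It rested in part on control 1: without that array the difference was -1.28 and the limma adjusted p 0.0502, and without control 2 it was -2.06. Without cRAF_cMYC and gammaA7 it was -1.81. Markers of macrophages and other myeloid cells, which also make this ligand, summed to 50110 and 31380 on the control arrays and to between 654 and 2195 in the lines, and all 16 tested of the 19 on the array were lower, where 21.4% of all tested probe sets were. Many of these markers, such as Lyz2 (mean of the lines 4.73) and Mrc1 (5.02), could pass the filter only through the control arrays. They could then be called in no other direction, so the count is a description. Platelet markers summed to 74.4 and 89.5 on the control arrays, and none of the 3 lay above the array median there. The part of such cells in the Tgfb1 difference was not tested, and in bulk RNA fewer cells of a type and less RNA per cell cannot be told apart.

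Tgfb2, a ligand of epithelial and mesenchymal tissues in development, gave 58.8 and 35.4 on the control arrays. The lines ran from 36.9 in A2C12 through 114 in gammaA7 to 200.4 in A2B1, with a mean of 124 ± 49.5 (SD, n = 11 lines). In 10 lines the line signal lay above both control arrays, and A2C12 lay between them on all of its arrays, at 37.8, 37.6 and 35.5. Single arrays of other lines also failed to exceed both controls. Replicate 2 of cRAF_cMYC (32.9) and of gammaB8 (35.0) lay below both. Between them lay gammaA7 replicate 2 (40.7) and gammaB8 replicate 1 (58.3). The line signal of gammaB8, 87.3, thus rested on its array without a number, at 249. The log2 difference of 0.92 (SE 0.34, limma adjusted p = 0.0253), or 1.89-fold, fell short of the 2-fold threshold and so was not called. It was called without line A2C12 (1.03), without control 1 (1.14), after quantile normalization (1.38) and after centring (1.46). Without control 2 it was 0.71, with a limma adjusted p of 0.22. All 15 arrays on which Tgfb2 exceeded the array median were tumour arrays. It passed the filter only through them and could hardly be called lower, so these differences are a description.

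Tgfb3, the ligand known for its part in palate and lung development, gave 241 and 261 on the control arrays. The lines ran from 145 in A2C12 through 365.5 in B3 to 623 in A2B1, with a mean of 375 ± 152 (SD, n = 11 lines). By line signal it lay above both control arrays in 8 lines and below both in 3, A2C12, cRAF_cMYC and gammaA7. Of these 3, only A2C12 was below both on all its arrays. Replicate 1 lay above both at 465 in cRAF_cMYC and 430 in gammaA7, while their other arrays gave 188 and 124, and 240 and 121. In gammaB8, above both by line signal, replicate 2 lay below both at 200. The log2 difference was 0.43 (SE 0.38, limma adjusted p = 0.332), within the spread of the lines. The 2 arrays of A2B1 gave 1099 and 347, so its top place rested on replicate 1. A second probe set of Tgfb3 lay under the array median on all 24 arrays and was not tested. It gave 3.62 and 2.52 on the control arrays and 24.7 ± 12.6 (SD, n = 11 lines).

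Inhba, whose product forms activin A, gave 105 and 46.5 on the control arrays. The lines ran from 182 in A2B1 through a median of 315 to 437 in gammaD12, with a mean of 316 ± 98.0 (SD, n = 11 lines). Every line lay above both control arrays, as did 25.4% of tested probe sets. The log2 difference was 1.69 (SE 0.31, limma adjusted p = 0.000194), or 3.22-fold higher. Of the 22 tumour arrays, 21 were above both controls and the exception was A2B1 replicate 1 at 57.1, against 483 on the other A2B1 array. Without that array the log2 difference was 1.80, without cRAF_cMYC and gammaA7 it was 1.72, and without control 2 it was 1.29. Inhbb, which encodes the other main activin subunit, had lower signals in the lines. They were 96.0 and 151.5 in the controls and 9.57 ± 7.62 in the lines (SD, n = 11), a log2 difference of -1.90. It exceeded the array median on the 2 control arrays only and so could be called in no other direction, and the difference is a description.

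Ltbp1, which ties latent TGF-beta to the matrix, gave 38.5 and 13.8 on the control arrays, both under the array medians. The lines ran from 86.8 in gammaB8 through 161 in betaD10 to 229.5 in gammaA7, with a mean of 159 ± 43.1 (SD, n = 11 lines). Every tumour array lay above both controls, the lowest being gammaB8 replicate 2 at 43.8. All 11 lines thus lay above both, a pattern shown by 25.4% of tested probe sets. The log2 difference was 1.71 (SE 0.26, limma adjusted p = 3.22e-05), or 3.28-fold higher. It was 1.63 without cRAF_cMYC and gammaA7 and 1.40 without control 2. All 20 arrays on which Ltbp1 exceeded the array median were tumour arrays. It passed the filter only through them and could hardly be called lower, so the difference is a description. The related Ltbp2 and Ltbp3, singled out after their values were seen, lay below both control arrays in all 11 lines but fell short of 2-fold, at log2 differences of -0.91 and -0.62. Ltbp4, the remaining member of that family, gave 218 and 1320 on the control arrays and 302 ± 98.7 (SD, n = 11 lines), below both in 2 lines, and was not called (-0.85, limma adjusted p = 0.0963).

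The receptor probe sets were dim. Tgfbr1, the kinase that phosphorylates the Smads, gave 28.9 and 59.5 on the control arrays and 30.2 ± 17.2 (SD, n = 11 lines), and lay above the array median on only 3 of 24 arrays. Those 3 were the arrays of A2C12, at 78.4, 80.2 and 78.8, which were above both controls, while the other 10 lines ran from 19.8 to 37.2. The log2 difference between lines and control was -0.30 (SE 0.24, limma adjusted p = 0.284), and its sign turned after quantile normalization (0.16) and after centring (0.23). Tgfbr2, the receptor that binds the ligand first, lay under the array median on all 24 arrays and was not tested. Its control signals were 2.01 and 1.92 and its tumour arrays ran from 1.07 to 21.4, a signal at which binding to the wrong RNA cannot be told apart from the gene. Tgfbr3, or betaglycan, a coreceptor that presents Tgfb2, gave 70.5 and 115 on the control arrays and 88.0 ± 26.4 (SD, n = 11 lines), from 46.6 in gammaA3 to 124 in cRAF_cMYC. Its log2 difference was -0.07 (SE 0.25, limma adjusted p = 0.819) and turned to 0.47 after quantile normalization or centring. Lines and controls overlapped for Tgfbr1 and Tgfbr3.

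Tgfbi, a secreted matrix protein named for its induction by TGF-beta, gave 119 and 505 on the control arrays. The lines ran from 1.30 in gammaA3 through a median of 8.88 to 51.3 in cRAF_cMYC, with a mean of 15.4 ± 15.2 (SD, n = 11 lines). All 11 lay below both control arrays, a pattern shown by 29.7% of tested probe sets. The log2 difference was -2.64 (SE 0.37, limma adjusted p = 1.72e-05), or 6.24-fold lower. It was -3.56 without control 1, -1.73 without control 2 and -2.80 without cRAF_cMYC and gammaA7. Only 3 tumour arrays were above the array median, namely gammaA7 replicate 2 at 153, cRAF_cMYC replicate 2 at 124 and cRAF_cMYC without a number at 76.3, and the first 2 of these also lay above control 1. The other arrays of these lines gave 10.0 and 4.87 in gammaA7 and 2.18 in cRAF_cMYC, so the 2 lines at the top of the order were each spread over their own arrays, and both are lines whose arrays resemble each other across the labels. A second Tgfbi probe set, under the median on all arrays and not tested, gave 31.2 and 17.4 on the control arrays and 3.72 ± 3.71 (SD, n = 11 lines). The myeloid markers given above for Tgfb1 moved the same way, and their part in this difference was not tested.

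Whether the lines differ among themselves beyond the spread between arrays of a line was asked next. Of the 8 tested genes, 0 passed the F-test over the 11 lines in limma at an adjusted p under 0.05, where 3.42% of all tested probe sets did. Tgfbr1 was tested only because its A2C12 arrays exceeded the array median, so its values among the lines are a description with no test. Before adjustment for multiple testing limma gave 0.0312 for Tgfb1, the only 1 of the other genes under 0.05. Their limma adjusted p values were 0.192 for Tgfb1, 0.265 for Tgfb3, 0.471 for Tgfb2, 0.584 for Inhba, 0.592 for Ltbp1, 0.691 for Tgfbr3 and 0.781 for Tgfbi. Line means spanned 1.89 log2 units for Tgfb3, 1.75 for Tgfb2, 1.74 for Tgfb1 and 0.99 for Tgfbr3. The within-line SD is limma's estimate from the fit of 12 groups. It is drawn towards the spread of all tested probe sets and includes the 2 control arrays. On the same scale it was 0.55, 0.61, 0.46 and 0.42. In the order of lines, neighbours lay at most 0.91 within-line SD apart for Tgfb1, 1.13 for Tgfb2 and 0.98 for Tgfb3, and at most 0.53 for Inhba, Ltbp1, Tgfbr3 and Tgfbi. The largest step was for Tgfbr1, where A2C12 at 79.1 stood 2.34 SD above the next line, B3 at 37.2. Inhba passed without the unnumbered A2B1 array (span 2.40, limma adjusted p = 0.0274), when A2B1 was left with its low array alone.

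Across the lines Tgfb1 ran against the other ligands. A2C12 held the highest Tgfb1 (214) and the lowest Tgfb2 (36.9) and Tgfb3 (145), and cRAF_cMYC and gammaA7, next in Tgfb1 at 168 each, were next to lowest in Tgfb3 at 225 and 236. Tgfb3 was widely spread over the arrays of cRAF_cMYC and gammaA7, with 465 and 430 on their replicate 1 arrays. At the other end betaD10 and gammaD12 had the lowest Tgfb1 (41.7 and 41.9) and high Tgfb3 (524 and 568). Over the 11 line means Pearson's r between Tgfb1 and Tgfb3 was -0.87 (Spearman's rho -0.86), between Tgfb1 and Tgfb2 -0.75 (rho -0.76) and between Tgfb2 and Tgfb3 0.88 (rho 0.89). These 3 were the strongest of the 28 pairs among the 8 tested genes, followed by Tgfb1 with Tgfbi at 0.73 (rho 0.56). Tgfb1 with Tgfb3 gave r = -0.87 over the 11 arrays without a number and -0.83 over the numbered arrays of 6 lines. Those 6 lines are among the 11, so the sets of arrays are not independent. Over the line means r of this pair was -0.75 without A2C12 and gammaA7, the lines farthest from the median of Tgfb1. It was -0.83 without cRAF_cMYC and gammaA7. Tgfb1 with Tgfb2 gave r = -0.66 (rho -0.51) over the arrays without a number and -0.70 over the numbered arrays. Without A2C12 and gammaA7 that pair gave -0.64. Within lines Tgfb1 was higher and Tgfb2 mostly lower on numbered arrays, as given below. Over the 11 line means, line and kind of array therefore cannot be told apart for that pair. Tgfb2 with Tgfb3 was weaker over the arrays without a number (r = 0.66, rho 0.36) than over the numbered arrays (r = 0.92). It was 0.72 without A2C12 and A2B1. All the values of a line share its arrays and their scaling, and the correlations are descriptions over 11 lines.

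**Figure D3:**
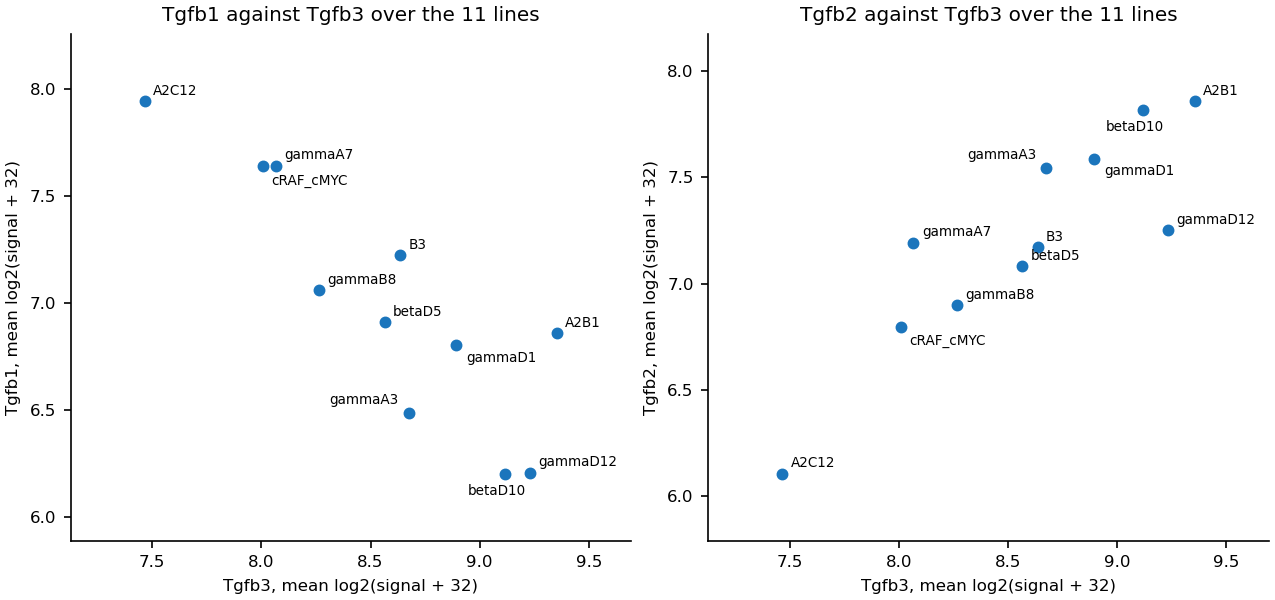
Mean log2(signal + 32) of Tgfb1 (left) and Tgfb2 (right) against that of Tgfb3, 1 point a line, 11 lines. A2C12 stands at the low end of Tgfb3 with the highest Tgfb1 and the lowest Tgfb2, and r is -0.87 on the left and 0.88 on the right.

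Other genes were ranked by how closely their line means followed each gene of the axis, among 2129 genes whose own line means spanned at least 1 log2 unit. Closest to Tgfb1 were the ribosome assembly factor Pes1 (r = 0.95 over 11 lines), the cytoskeletal Septin9 (0.93) and the RNA-binding protein gene Rbmx (0.93). Closest to Tgfb2 were Mdfic (0.94), the tetraspanin Cd81 (0.93) and the acute phase gene Saa3 (0.93). Without A2C12 and A2B1, r was 0.81, 0.785 and 0.92 in that order. Closest to Tgfb3 were Ilvbl (0.97), the peroxisomal protease Lonp2 (0.96, or 0.91 without A2C12 and A2B1) and the anaphase-promoting complex subunit Anapc2 (0.94). For Inhba they were Ndrg4 (0.89), the Wnt receptor Ror2 (0.88) and the phosphatase Ptprk (0.88), and for Ltbp1 the prostaglandin E synthase Ptges (0.89), the collagen receptor Ddr2 (0.85) and the lysophosphatidic acid receptor Lpar1 (0.84). The likenesses of Ltbp1 fell without gammaB8 and A2B1, to 0.78 for Ptges, 0.73 for Ddr2 and 0.595 for Lpar1. The likeness of Tgfbr1 to the exportin Xpo7 (0.94) and to Gmfb (0.92) rested on A2C12 and B3, without which r was 0.52 and 0.34, and that to Egr2 (0.92) was 0.81 without them. Tgfbi was most like the collagen gene Col6a3 (0.96), Crabp1 (0.96, or 0.80 without cRAF_cMYC and gammaA7) and Ptpn22 (0.93). Tgfbr3 spanned less than 1 log2 unit and was not ranked. The highest of 2129 correlations over 11 lines are high in part because they were picked as the highest.

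The labels separate numbered from unnumbered arrays without saying how they differ, and for Tgfb1 this mattered. The comparison was added after the values were seen. Within each of the 6 lines with several arrays, Tgfb1 was higher on the numbered arrays, for example 167 and 130 against 42.0 in gammaB8, 267 and 272 against 133 in A2C12 and 113 against 61.1 in A2B1. The mean log2 difference was 0.78 (SE 0.13, limma adjusted p = 0.0352), or 1.72-fold. An exact sign-flip permutation test over the 6 lines gave p = 0.0312, the smallest that 6 lines allow. Of all tested probe sets 9.88% were higher on numbered arrays in 6 of 6 lines and 4.38% lower, and the median log2 difference was 0.07. In limma 0.43% were higher and 0.404% lower at an adjusted p under 0.05, and only 0.104% and 0.156% also by at least 2-fold, which no gene of the axis was. The Tgfb1 difference kept its sign in all 14 alternatives, with limma adjusted p from 0.0304 to 0.332. The adjusted p stayed under 0.05 in only 3 of them. It was 0.0787 in limma after quantile normalization (log2 difference 0.64) and 0.332 in limma without both cRAF_cMYC and gammaA7 (0.82), and leaving out any line but A2B1 also took it past 0.05.

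Tgfbr3 was also higher on numbered arrays in 6 of 6 lines, by 0.70 in log2 (SE 0.15, limma adjusted p = 0.0625; exact sign-flip permutation p = 0.0312). In B3, for example, the numbered arrays gave 165 and 157 and the other array 56.0. Tgfb2 went the other way in 5 of 6 lines, at a mean of -0.65 (limma adjusted p = 0.165), with 94.6 and 86.7 on the numbered arrays of B3 against 168 on the other. Inhba was lower on numbered arrays in 5 of 6 lines (-0.69, limma adjusted p = 0.23; -0.32 without A2B1). Tgfb3, Ltbp1, Tgfbr1 and Tgfbi had no common direction. The lines with 1 array all have an array without a number, and 4 of them, betaD10, gammaD12, gammaA3 and gammaD1, are the 4 lowest in Tgfb1. For these lines the line and the kind of array cannot be told apart, and the order of Tgfb1 over all 11 lines carries both. Kept to arrays without a number, the log2 difference of Tgfb1 from control was -1.95, and with numbered arrays where a line has them it was -1.52. The labels give the control arrays no such mark.

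**Figure D4:**
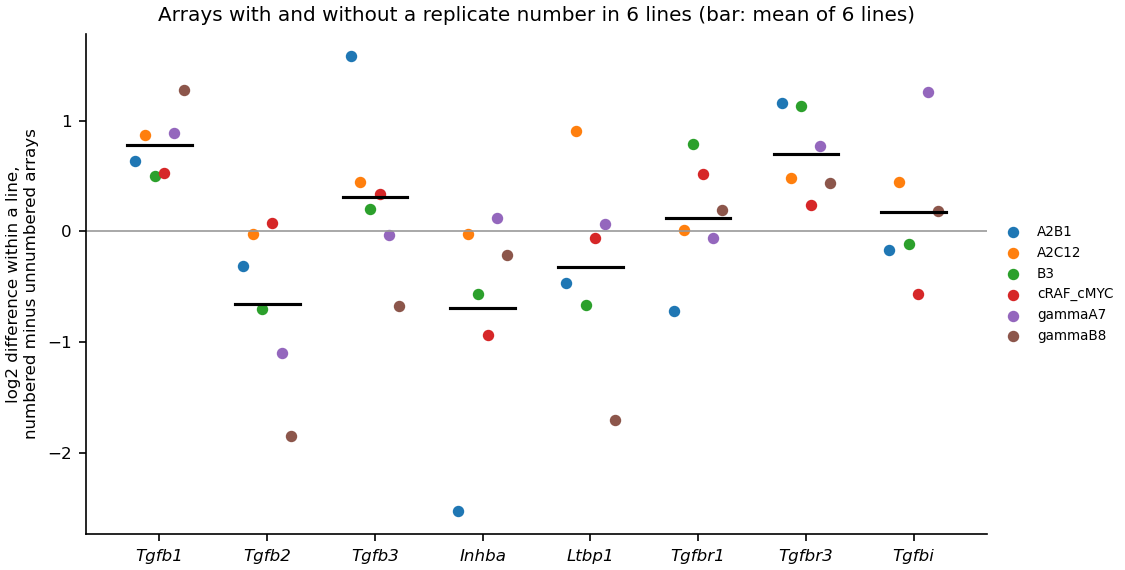
Log2 difference between the numbered arrays of a line and its array without a number, for the 8 tested genes, 1 point a line and a bar at the mean of 6 lines. All 6 points lie above 0 for Tgfb1 and Tgfbr3, at means of 0.78 and 0.70.

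The rest of the pathway was read from 5 lists, in which 72 genes other than the 9 were tested: 27 of them (37.5%) were called higher in the lines and 6 (8.33%) lower, against 16.7% and 21.3% of all 5825 tested genes. Without control 2 the counts were 21 and 4, without control 1 30 and 9, and after centring 39 and 3. Some of these genes passed the filter only through the lines, such as Hmga2, or only through the controls, such as Inhbb. They could hardly be called in the other direction, so the counts are a description. Among ligands and latency genes, 2 of 10 were higher and 3 lower, Inhbb among the latter, with a median log2 difference of -0.74. The integrin subunit Itgav, part of the integrins that release latent TGF-beta, rose by 1.08 (SE 0.26, limma adjusted p = 0.00216; not called without control 2, at 0.49, or after quantile normalization, at 0.90), although dimmer probe sets of it gave -0.28 and 0.98. The membrane protease Mmp14 rose by 1.01 (SE 0.28, limma adjusted p = 0.00492; 0.77 and not called without control 2). It lay so near the 2-fold threshold that 13 of 46 alternatives lost the call, among them leaving out A2C12 (0.96) and the replicate block (0.995). Furin, the convertase that cuts the TGF-beta propeptide, went from 823 and 955 to 412 ± 58.3 in the lines (SD, n = 11), and the log2 difference was -1.06 (limma adjusted p = 3.78e-05; not called after centring, at -0.53, or without control 2, at -0.96). Mmp9 was called lower at -1.23 only through control 2, on which it gave 248 against 4.03 on control 1, and without control 2 the difference was 0.25.

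Of 4 other receptor genes tested, 1 was higher and 1 lower, with a list median of -0.85. The shares of all tested genes, for this and the next lists, were 16.7% higher and 21.3% lower. Endoglin (Eng), a coreceptor, went from 519 and 876 to 2658 ± 882 in the lines (SD, n = 11), and the log2 difference was 1.83 (SE 0.41, limma adjusted p = 0.00106). Acvrl1, the type I receptor that works with endoglin in vessels, went from 287 and 602 to 86.2 ± 16.4 (-1.94, SE 0.22, limma adjusted p = 1.97e-06), and its 2 other probe sets gave -1.69 and -2.07. Eng is also a marker of endothelial cells, and the 5 other tested endothelial markers were lower in the lines, among them Vwf at 3.15 and Cdh5 at 7.14 against at least 155 on the control arrays. Markers this dim in the lines could pass the filter only through the control arrays, so their direction is a description. Among antagonists and decoys 2 of 6 were higher and none lower (median 0.74). Biglycan (Bgn), a proteoglycan that binds TGF-beta, went from 1667 and 1326 to 6843 ± 1451 (2.15, SE 0.22, limma adjusted p = 8.15e-07; a dimmer probe set gave 0.50), and Fstl1 rose by 1.07 (0.30 and not called without control 2). Of 16 Smads and Smad regulators 1 was called, the coactivator Crebbp, at 1.04 (limma adjusted p = 0.000297; 0.70 and not called without control 1), and the list median was 0.23. Smad2, Smad3, Smad4 and Smad7, given because they carry or brake the signal, stood at 0.59, 0.58, 0.46 and -0.32 and were not called.

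Among 37 tested genes known to respond to TGF-beta, 21 were higher and 2 lower (median 1.36), with Tgfbi, a member of the same list, not counted. Of all tested genes 16.7% were higher and 21.3% lower. The list does not separate genes by the direction of their response, so the count is not a measure of TGF-beta activity. The chromatin protein Hmga2 rose by 4.56 (SE 0.56), the collagen cross-linking enzyme Lox by 4.41 (SE 0.58), and the collagens Col1a1 and Col5a2 by 3.77 (SE 0.45) and 3.64 (SE 0.70), with limma adjusted p from 3.64e-06 to 0.000324. These 4 differed between the control arrays: Lox gave 577 and 26.5, Col1a1 1147 and 164, and without control 2 the log2 differences were 3.75, 2.72, 2.48 and 2.06. A second Col1a1 probe set gave -0.01 and a second Lox probe set 0.47. The transcription factors Snai1, Snai2 and Zeb1, named for their part in epithelial to mesenchymal transition after their values were seen, rose by 1.30, 1.74 and 1.36. Hmga2, Snai1 and Cnn1, another gene counted as higher, lay under the array median on both control arrays. They passed the filter only through the lines and could hardly be called lower, so their direction is a description. The helix-loop-helix inhibitors Id1 and Id3, also named after their values were seen, rose by 1.86 and 1.84, while Id2 fell by 2.02 on the log2 scale. The repressor Bhlhe40 fell by 1.49 on the log2 scale (-0.96 and not called after centring). Fibroblast and smooth muscle markers, which share Col1a1, Col1a2, Col3a1 and Acta2 with this list, summed to 6634 and 3662 on the control arrays and to between 11010 and 37490 in the lines, with 4 of 11 called higher and 2 lower. The part of that shared signal in the count of response genes was not tested.

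**Figure D5:**
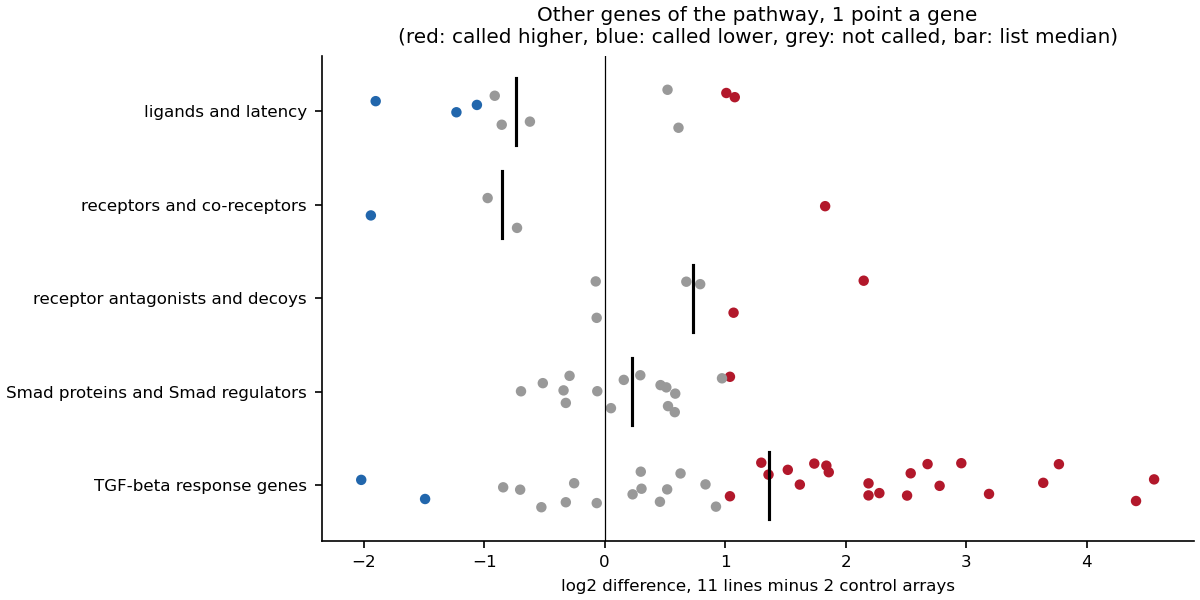
Log2 difference between the 11 line means and the 2 control arrays for the tested genes of 5 pathway lists without the 9 genes, 1 point a gene, with the list median as a bar. The response genes lie mostly to the right of 0, at a median of 1.36, and the ligand and receptor lists have medians of -0.74 and -0.85.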

How the data were processed

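RNA of 22 tumour line arrays and 2 control arrays was measured. The deposited values are intensity signals on a linear scale, made by the authors with GCOS per the submitters' processing notes, with no version given. The mean signal after trimming 2% at each end was 250.1 to 250.2 on every array, so levels are relative to the array's total RNA. The sources do not state background correction or detection calls. Without 66 spike and control probe sets, 12422 remained, of which 10833 have 1 gene symbol, 396 several and 1193 none.

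Signals were taken as log2(signal + 32). Probe sets above their array's median on at least 2 arrays (7670) were tested in limma 3.58.1 (R 4.3.3), with Benjamini-Hochberg adjustment over all of them. The 11 line means were compared with the 2 control arrays. Lines were compared by an F-test in a fit of 12 groups to 24 arrays, where lines with 1 array are assumed to vary like the others. Both fits take their spread mostly from the lines, so SE is too small where the control arrays lie far apart. A gene stands for its brightest tested probe set. Both fits, and that of numbered against unnumbered arrays, were tested on simulated data. The number of arrays limits the precision. Whether repeat arrays came from separate cultures is not stated, so the p-values reflect only the spread among these samples, which may be technical.

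Named by rule are all 9 genes, up to 4 called genes per pathway list and direction with the largest differences, and the 3 genes most correlated with each ranked gene of the 9 over the lines. Other genes are named as examples, as relatives or after their values were seen. Members and lists were chosen with earlier results of these data known. Alternatives covered scaling, offset, filter, fold threshold, variance model, kind of array and leaving out arrays, lines or controls. Comparing numbered with unnumbered arrays, and leaving out cRAF_cMYC with gammaA7, were added after seeing the data.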

Additional observations from a re-analysis of the deposited data

Results flagged for a closer look

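Tgfb3 and Tgfbr1 were flagged because whole lines lay on opposite sides of the same control arrays. The share of all tested probe sets with such a pattern was not counted, so it is not read as particular to these genes. For Tgfb3, all arrays of A2B1 and B3 lay above both control arrays and all arrays of A2C12 below both, with these lines' log2 differences from control 1.53 apart on average. For Tgfbr1, all arrays of A2C12 lay above both control arrays and all arrays of gammaB8 below both, 1.04 apart. A test of the difference between just these lines was not run. The F-test over all 11 lines in limma gave adjusted p = 0.265 for Tgfb3. For Tgfbr1, tested only because its A2C12 arrays exceeded the array median, the difference is a description. Lines with 1 array were not considered here, and all contrasts share the 2 control arrays.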

How the results depend on the processing

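Inhba and Ltbp1 were called higher, and Tgfbi lower, in every alternative that kept the 2-fold threshold and could test them. Ltbp1 passed the main filter only through tumour arrays. With a 4-fold threshold 0 of the genes were called higher and 1 lower, and 14 pathway genes were called higher and 1 lower. With no fold threshold 13 pathway genes were called lower. After centring arrays on their medians 3 pathway genes were called lower. Filtering on at least 6 arrays above the median left 1 gene called lower, since Tgfbi was no longer tested, and leaving out samples in turn gave 1 to 2, with 1 without control 1. For the test among lines, leaving out samples in turn gave 0 to 1 genes called. Setting signals under 32 to 32, keeping the 6 lines with 2 or 3 arrays, or the numbered arrays of 5 lines, gave 1, which was Tgfbr1, tested only through its A2C12 arrays. Small differences that were not called changed sign: Tgfbr1 against control to 0.16 (quantile) and 0.23 (centring), Tgfbr3 to 0.47 (quantile), 0.47 (centring), 0.193 without control 2 (-0.33 without control 1) and 0.077 (numbered arrays), and between numbered and unnumbered arrays Tgfbr1 to -0.00902 (centring) and -0.011 without line B3 (up to 0.291 without A2B1) and Tgfbi to -0.043 without gammaA7 (up to 0.322 without cRAF_cMYC). Mmp9 changed from a called fall to 0.252 without control 2 (-2.71 without control 1). The cause of these changes was not tested. With the array number as a replicate block, 3 of the 9 genes were called higher, Tgfb2 being added at 1.15, and 2 lower, and 0 differed among lines, while Mmp14 (0.995) and Mmp9 (-1.02) were no longer called. Same-numbered arrays of different lines had correlated deviations of 0.17 to 0.54 without a number, 0.06 to 0.67 for number 1 and 0.06 to 0.70 for number 2, so not every pair was over 0.1 and the numbers are not taken to pair samples. Dim signals limit Tgfbr1, Tgfbr2 and, in the lines, Tgfbi, whose log2 difference ran from -4.58 with an offset of 1 to -1.65 with an offset of 100.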
